A study of Mus musculus with 20 samples.

Results

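Galectins and annexins were followed in mouse heart ventricle, where 13 probe sets on the array belonged to 10 of their genes: Lgals1, Lgals3, Lgals4, Lgals9 and Anxa1 to Anxa6. The table held 12488 probe sets in all, linked to 8251 genes. The genes were chosen by an earlier result of these same arrays, a higher Lgals1 level in hearts that carry the tetracycline transactivator (tTA), with the question of whether Lgals1 moved alone or with its relatives and with genes of injury. The Lgals1 values in both genotype comparisons are therefore a description, as are all values of the genotype comparison under doxycycline. No gene's p is printed for these, and where a count past a threshold is given, nothing is read from it. Of the 13 probe sets, 11 (for 9 genes) passed the intensity filter and entered the tests.

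The study asked what expression of tTA does to the mouse heart. The groups were 5 arrays of tTA + Doxy, 8 of tTA, 4 of FVBN + Doxy and 2 of FVBN control. All were hybridised with total RNA of cardiac ventricle on 1 Affymetrix array design. The tTA protein is a bacterial repressor fused to a viral activation domain. It binds tetracycline operator sequences, and doxycycline (Doxy) prevents this binding. The tTA hearts carry a transgene which the labels' keywords connect with the alpha MHC promoter, which is active in cardiomyocytes, and with FVBN mice. The FVBN hearts are the wild type, and the name is read as the inbred FVB/N strain. The sources used here give no transgenic line, age or sex and no dose or time of Doxy, nor is it stated that the arrays come from separate animals. The p-values then measure only the spread between these arrays, which may be technical. In the array numbers, tTA + Doxy holds 7399 to 7488, FVBN + Doxy 8337 to 8341 and FVBN control 8177 and 8182, while tTA holds 7288 to 7311 and also 9310 and 9322. No other group's number falls within any of these stretches. The labels do not say what the numbers stand for, and whether the groups were handled apart cannot be told from them.

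Galectins are proteins that bind beta-galactoside sugars on glycoproteins. They lack a signal peptide and reach the cell surface by an unconventional route, where they cross-link receptors and matrix. Annexins bind negatively charged phospholipids when calcium rises and act in membrane traffic, the cytoskeleton and the resealing of torn membranes. In the heart, galectin-3 is known mainly as a product of macrophages and a marker of fibrosis, galectin-1 is made by cardiomyocytes as well as by stromal and immune cells, and annexin A5 and annexin A6 are abundant annexins of cardiac tissue.

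Promoter windows are shown for 3 members: Anxa5, the annexin whose level followed Lgals1 most closely, Anxa2, an annexin whose level did not, and Lgals3, which lay at the floor on every array. Each is the 250 bases upstream of the gene start in RefSeq (mouse build GRCm38.p6), written 5' to 3' on the strand of the gene. The Anxa5 window is chr3:36475888-36476137 on the minus strand, the Anxa2 window chr9:69453433-69453682 on the plus strand and the Lgals3 window chr14:47373610-47373859 on the plus strand. Capitals mark 3 motifs searched on both strands, the GC box (GGGCGG or CCGCCC), the TATA box (TATAAA or TTTATA) and the CCAAT box (CCAAT or ATTGG).
Anxa5: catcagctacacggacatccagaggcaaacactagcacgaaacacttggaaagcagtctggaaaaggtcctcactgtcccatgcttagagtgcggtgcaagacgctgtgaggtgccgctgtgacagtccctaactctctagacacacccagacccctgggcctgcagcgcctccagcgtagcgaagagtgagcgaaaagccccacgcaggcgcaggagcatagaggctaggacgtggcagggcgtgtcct
Anxa2: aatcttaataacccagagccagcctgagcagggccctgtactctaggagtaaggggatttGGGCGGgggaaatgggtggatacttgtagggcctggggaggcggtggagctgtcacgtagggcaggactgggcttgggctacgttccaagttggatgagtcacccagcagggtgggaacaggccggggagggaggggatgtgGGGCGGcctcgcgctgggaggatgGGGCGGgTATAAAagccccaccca
Lgals3: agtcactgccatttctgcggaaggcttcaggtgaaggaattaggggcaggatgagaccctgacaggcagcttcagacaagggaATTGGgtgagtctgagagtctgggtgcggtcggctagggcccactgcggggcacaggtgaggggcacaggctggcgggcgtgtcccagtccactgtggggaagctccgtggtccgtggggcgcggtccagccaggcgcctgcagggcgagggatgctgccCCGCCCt
The Anxa5 window held 58.8% G and C with 13 CpG dinucleotides and none of the 3 motifs. The Anxa2 window held 62.4% G and C, 9 CpG, 3 GC boxes and 1 TATA box. The Lgals3 window held 66.0% G and C, 13 CpG, 1 GC box and 1 CCAAT box. Over 32851 mouse promoter windows of this length the median G and C content was 52.4%. A GC box was found in 32.7% of those windows, a TATA box in 12.4% and a CCAAT box in 33.8%. A match is only a match of letters, and its absence says nothing of the factor that binds there. Entries for 7 of the 10 members were found in the table used, and Lgals1, Anxa3 and Anxa6 had none.

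The deposited intensities had medians of 60.74 to 62.45 on the 19 arrays that have a group and 1 that has none. On the log2 scale and before any normalization here, the deposited intensities of arrays of 1 group correlated at r = 0.9925 to 0.9981 across probe sets. All 12 cardiomyocyte markers looked up passed the intensity filter, and 1 of them, Ryr2, which encodes the ryanodine receptor, was called lower in both genotype comparisons. The 4 atrial markers, of which 3 passed the filter, had no call. RNA quality moved with genotype: for the beta-actin control, the 3' signal over the 5' signal, as a log2 ratio, averaged 0.36 in tTA + Doxy and 0.32 in tTA, against 0.51 in FVBN + Doxy and 0.55 in FVBN control. A fit adjusted for this ratio is given below where it changed the call of a member, of Mt1 or of Nrp1. For the other genes of the injury, partner and repair lists, only counts of calls were kept under that fit. The calls of cell type markers, Ryr2 among them, were not followed in it.

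Lgals1 (probe set 99669_at) encodes galectin-1, the small dimeric galectin. Among the 19 arrays with a group, it was higher in tTA hearts with and without Doxy, and no transgenic array overlapped any wild-type array. On the log2 scale the 5 tTA + Doxy arrays read 10.13, 10.22, 10.31, 9.90 and 10.39, and the 8 tTA arrays ran from 9.95 through a median of 10.22 to 10.32. The 4 FVBN + Doxy arrays read 9.60, 9.66, 9.35 and 9.55, and the FVBN control arrays 9.60 and 9.50. The lowest of the 13 transgenic arrays thus lay 0.25 above the highest of the 6 wild-type arrays. In deposited intensity, the ranges were 1012 to 1322 in tTA + Doxy and 948.3 to 1276 in tTA, against 654.9 to 814.5 in FVBN + Doxy and 741 to 836.5 in FVBN control.

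**Figure D1:**
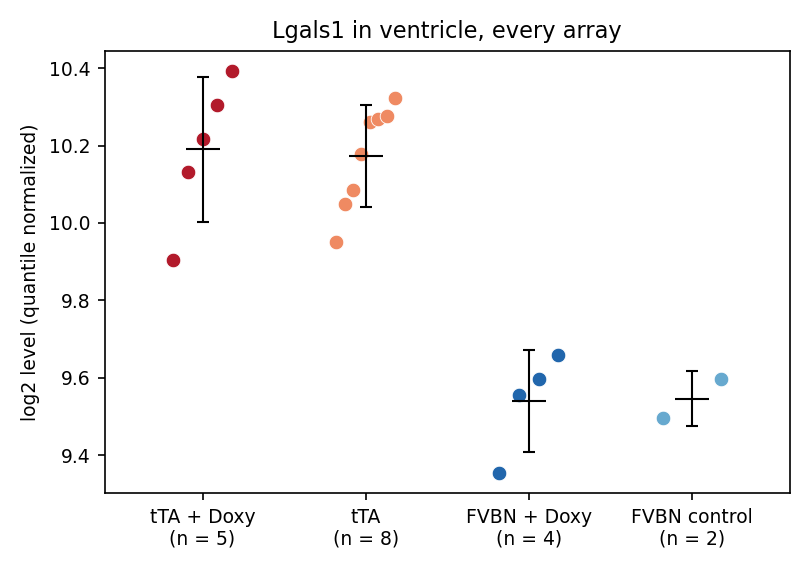
Log2 level of Lgals1 (quantile normalized intensity, y axis) on every array of tTA + Doxy, tTA, FVBN + Doxy and FVBN control. Points are arrays and bars are the group mean and SD; the 13 tTA arrays sit at or above 9.90 and the 6 FVBN arrays at or below 9.66.

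The Lgals1 means were 10.19 ± 0.19 in tTA + Doxy (SD, n = 5) and 9.54 ± 0.13 in FVBN + Doxy (SD, n = 4), a difference of 0.65 ± 0.09 (SE), or 1.57-fold. Without Doxy they were 10.17 ± 0.13 in tTA (SD, n = 8) and 9.55 ± 0.07 in FVBN control (SD, n = 2), a difference of 0.63 ± 0.10 (SE), or 1.55-fold. The 95% intervals were 0.47 to 0.83 with Doxy and 0.41 to 0.84 without, on the log2 scale. Within the order of the 4 means, the neighbours tTA + Doxy and tTA differed by less than the spread between arrays, as did FVBN control and FVBN + Doxy. The step from the transgenic to the wild-type groups exceeded it. The lowest transgenic array was tTA + Doxy 7486 at 9.90, and the highest wild-type array was FVBN + Doxy 8338 at 9.66.

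No difference in Lgals1 between hearts with and without Doxy passed the test. tTA + Doxy minus tTA was 0.02 ± 0.07 (SE, 95% interval -0.14 to 0.17, limma adjusted p = 0.978). FVBN + Doxy minus FVBN control was -0.01 ± 0.11 (SE, 95% interval -0.24 to 0.23, limma adjusted p = 0.988). The interaction, which is the Doxy difference in tTA minus that in FVBN, was 0.02 ± 0.14 (SE, 95% interval -0.26 to 0.31, limma adjusted p = 0.945). A p above the threshold does not show that the levels were equal, and the intervals give the sizes that remain possible.

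In tTA against FVBN control, 1 of the 11 member probe sets was called higher at a limma adjusted p below 0.05, that of Lgals1, and 0 were called lower. Over all tested probe sets the share called was 0.966% higher and 1.82% lower, 208 probe sets in all. That total was 54 without FVBN control 8177, 63 without FVBN control 8182 and 27 when the fit was adjusted for the beta-actin ratio. None of the 10 other member probe sets (8 genes) was called by limma, and their differences ran from -0.13 to 0.23, with 3 above and 7 below 0. At an unadjusted p below 0.05 stood 4 of the 11, Lgals1, Anxa4, Anxa5 and Anxa6, and 16.7% of all tested probe sets. Median scaling changed the split of calls over all probe sets: 72 higher and 136 lower with quantile normalization, 46 and 221 with median scaling, and 69 and 207 as deposited. Lgals1 itself lost its call without FVBN control array 8182, at a difference of 0.58, and also when the fit was adjusted for the beta-actin ratio, at 0.54 ± 0.14 (SE), so that 0 members were called in each of these fits.

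Anxa5, Anxa6 and Anxa4 had the next largest differences without Doxy. Anxa5 encodes annexin A5, a protein that coats phosphatidylserine on damaged membranes. Its log2 level ran from 8.56 through a median of 8.80 to 8.92 in tTA, against 8.50 and 8.57 in FVBN control. All 8 tTA arrays lay above the control mean, but the lowest of them overlapped the higher control array. The difference was 0.23 ± 0.08 (SE, 95% interval 0.05 to 0.40, limma adjusted p = 0.158). With tTA arrays 9310 and 9322 set aside, whose numbers stand apart from the other tTA arrays, Anxa5 passed at 0.28 ± 0.08 (SE, limma adjusted p = 0.0492) beside Lgals1, which gave 2 called members.

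Anxa6 encodes the large annexin with a doubled core, known in heart for its effect on calcium handling and contraction. In tTA it ran from 8.85 through a median of 8.93 to 9.04, against 8.85 and 8.69 in FVBN control. The groups did not overlap, by a gap of 0.005, and the difference of 0.16 ± 0.06 (SE, 95% interval 0.04 to 0.29) did not pass (limma adjusted p = 0.145). Member probe sets whose tTA arrays all lay above both controls numbered 2 of 11, Lgals1 and Anxa6, and 0 lay all below. Over all tested probe sets those shares were 6.63% and 6.09%.

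Anxa4, a membrane-aggregating annexin that is best known from epithelia, ran from 5.81 through a median of 6.04 to 6.18 in tTA, against 5.75 and 5.82 in FVBN control. The difference was 0.23 ± 0.09 (SE, 95% interval 0.04 to 0.42, limma adjusted p = 0.203), with 8 of 8 tTA arrays above the control mean. The other tested members gave differences from -0.13 to -0.04 with intervals that include 0. Among them, Anxa2, the partner of S100a10 on membranes and actin, stood at -0.10 ± 0.11 (SE, limma adjusted p = 0.715).

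**Figure D2:**
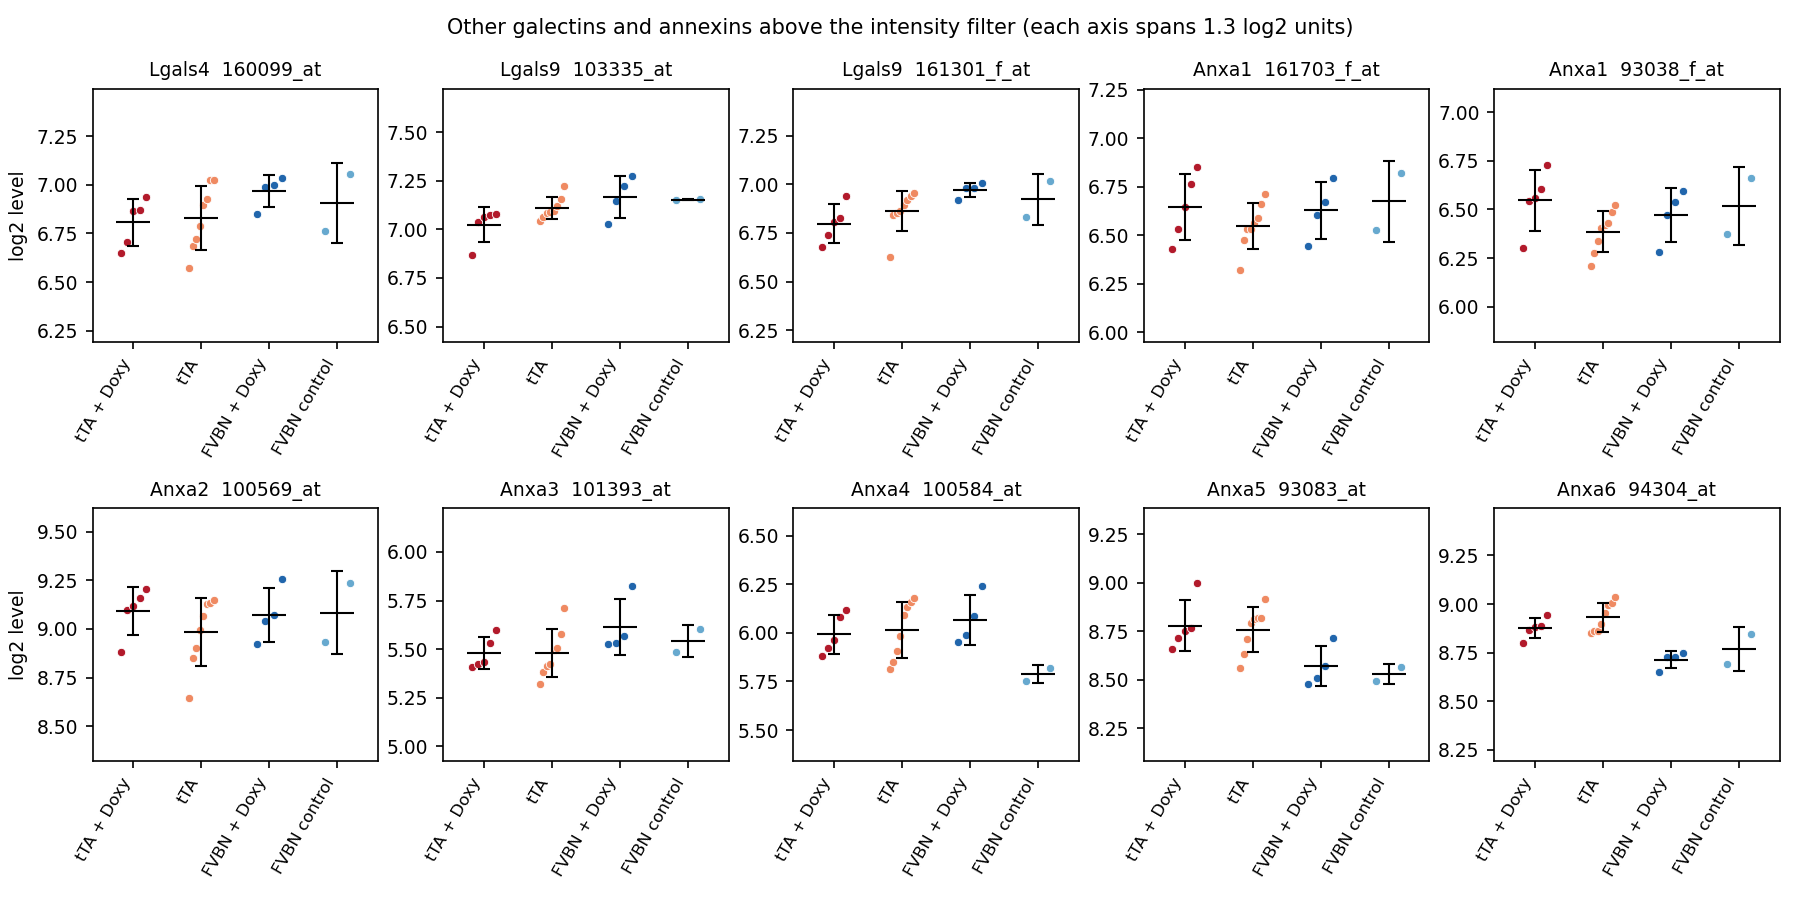
Log2 levels (y axis) of the 10 tested probe sets of the other members, 1 panel each, on every array of tTA + Doxy, tTA, FVBN + Doxy and FVBN control, with mean and SD. Each axis spans the same number of log2 units, so the spread can be compared between panels; the panels of Anxa5 and Anxa6 show the transgenic arrays mostly above the wild-type ones, while Lgals4, Lgals9 and the Anxa1 to Anxa3 panels overlap.

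In tTA + Doxy against FVBN + Doxy, the comparison whose Lgals1 rise chose the genes, 1 member probe set was called higher (Lgals1) and 0 lower, beside 4.27% higher and 1.6% lower over all tested probe sets. Groups did not overlap for 2 member probe sets that were higher (Lgals1 and Anxa6) and 0 that were lower, beside 6.23% and 3.49% over all. Anxa6 read 8.89, 8.80, 8.88, 8.94 and 8.87 in tTA + Doxy, against 8.65, 8.75, 8.73 and 8.73 in FVBN + Doxy. Every transgenic array was above every wild-type array, by a gap of 0.052, and the difference was 0.16 ± 0.05 (SE), close to the 0.16 found without Doxy.

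Anxa5 read 8.75, 8.71, 8.77, 8.66 and 9.0 in tTA + Doxy, against 8.51, 8.57, 8.72 and 8.48 in FVBN + Doxy, a difference of 0.21 ± 0.07 (SE). Here FVBN + Doxy array 8340 reached into the tTA + Doxy range. Lgals9 encodes a galectin with tandem sugar-binding domains, known from immune cells as a ligand of Havcr2. Its 103335_at probe set read 7.08, 7.06, 7.07, 7.04 and 6.87 in tTA + Doxy, against 7.22, 7.03, 7.15 and 7.28 in FVBN + Doxy, a difference of -0.14 ± 0.05 (SE). The other Lgals9 probe set, 161301_f_at, gave -0.17 ± 0.06 (SE), with 5 of 5 tTA + Doxy arrays below the FVBN + Doxy mean in both. The suffix _f marks probes that similar sequences share, so those readings are uncertain.

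The remaining members under Doxy overlapped between genotypes. Lgals4, an intestinal galectin in mouse whose sequence is nearly that of Lgals6, and which is therefore uncertain, stood at -0.16 ± 0.09 (SE) and Anxa3 at -0.13 ± 0.07 (SE), each with 5 of 5 tTA + Doxy arrays below the FVBN + Doxy mean. Anxa4 stood at -0.08 ± 0.08 and Anxa2 at 0.02 ± 0.10 (SE each). The Anxa1 probe sets stood at 0.02 ± 0.09 and 0.08 ± 0.08. The count of called members was 2 in place of 1 without any of FVBN control 8177, FVBN control 8182, FVBN + Doxy 8338, tTA 7288 or tTA + Doxy 7424, and 3 without tTA 7308. The probe set added was that of Anxa6, except without FVBN + Doxy 8338, where it was one of Lgals9, and without tTA 7308, where both were added.

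**Figure D3:**
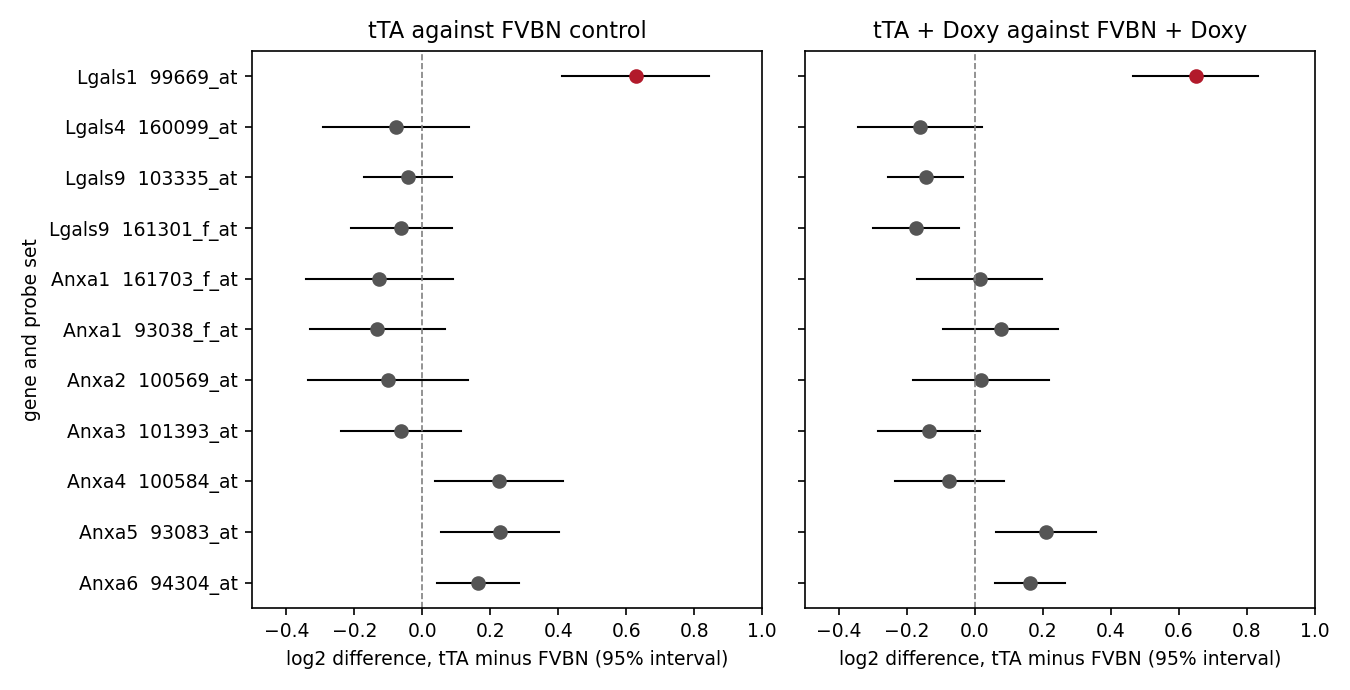
Log2 difference, tTA minus FVBN, with its 95% interval (x axis) for the 11 tested member probe sets (y axis), in 1 panel with Doxy and 1 without. Lgals1 stands at 0.65 with Doxy and 0.63 without, and every other probe set lies between -0.17 and 0.23.

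No member was called in the comparisons of Doxy. In tTA + Doxy against tTA, 0 of 11 member probe sets passed in limma, and 0.0671% of all tested probe sets were called in either direction. At an unadjusted p below 0.05 stood 1 of the 11, beside 7.65% of all tested probe sets. That 1 was an Anxa1 probe set, 93038_f_at, at 0.16 ± 0.07 (SE, limma adjusted p = 0.582). Anxa1 encodes annexin A1, a mediator of the resolution of inflammation that glucocorticoids induce. Its other probe set above the filter, 161703_f_at, gave 0.10 ± 0.08 (SE, limma adjusted p = 0.807), and the pair correlated at r = 0.878 over the 19 arrays. Both carry the suffix _f, so these readings are uncertain too.

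In FVBN + Doxy against FVBN control, 0 of 11 passed in limma and 0.0403% of all tested probe sets were called. At an unadjusted p below 0.05 stood 1 of the 11, beside 11.8% of all tested probe sets. That 1 was Anxa4, which read 6.09, 5.99, 5.96 and 6.24 in FVBN + Doxy, against 5.75 and 5.82 in FVBN control. Each of the 4 arrays with Doxy was above both controls, but the share of all probe sets separated in this way was not counted for this comparison. The Anxa4 difference was 0.28 ± 0.10 (SE, 95% interval 0.07 to 0.49, limma adjusted p = 0.363). The interaction called 0 of 11 members in limma, beside 0.0134% of all tested probe sets. At an unadjusted p below 0.05 stood 1 of the 11, beside 14.6% of all tested probe sets. It was Anxa4 again, at -0.30 ± 0.12 (SE, limma adjusted p = 0.278).

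Lgals3, the galectin best known from cardiac fibrosis, gave no measurable level. Its probe set had deposited intensities of 12.38 to 13.74 in tTA + Doxy, 12.15 to 13.51 in tTA, 12.3 to 13.27 in FVBN + Doxy and 12.73 to 12.81 in FVBN control. All are under the floor of 14.37 once normalized, so the array sets only a bound and no difference was tested. Of the 3 Anxa1 probe sets, 1, 93037_i_at, was at the floor too, at 9.387 to 11.69 over the 19 arrays. The suffix _i marks an incomplete probe set.

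The probe sets most like Lgals1 over the 19 arrays belonged to Clu, Cops4, Dbi and Gnb3. Pearson's r with Lgals1 was 0.951 and 0.947 for the Clu probe sets, 0.919 for Cops4, 0.912 for Dbi and 0.909 for Gnb3. These values are a description across arrays that fall into groups, and r of the deviations from the group means was lower, from 0.577 to 0.673. Among the members, Anxa5 had r = 0.784 with Lgals1 and 0.525 for the deviations. Anxa6 had r = 0.683 but -0.151 for the deviations, so its likeness lay between the groups. Lgals9 stood at -0.595 and Anxa2 at -0.066.

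An injury list served to set Lgals1 beside the wider response. It held 40 genes of wound healing, matrix, natriuretic peptides and stress, each read by its brightest probe set alone. Of these genes 34 were on the array and 22 passed the filter. In tTA against FVBN control, 0 were called higher and 1 lower by limma, beside 0.966% and 1.82% of all tested probe sets. At an unadjusted p below 0.05 in either direction stood 2 of the 22, beside 16.7% over all. The gene called was Mt1, a metal-binding metallothionein, at -0.40 ± 0.07 (SE, limma adjusted p = 0.00224). The list's median difference was -0.09, against 0.01 over all tested probe sets, and 9 of the 22 were above 0. The count called lower was 0 without FVBN control 8177 or 8182, where Mt1 stood at -0.40 each time. It was also 0 when the fit was adjusted for the beta-actin ratio, where Mt1 stood at -0.30 ± 0.09 (SE, limma adjusted p = 0.181).

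In tTA + Doxy against FVBN + Doxy, 4 of the 22 stood at an unadjusted p below 0.05, beside 21.1% of all tested probe sets. By limma 0 were called higher and 2 lower, beside 4.27% and 1.6% over all. Those 2 were Nppb, the B-type natriuretic peptide of stretched myocardium, at -0.90 ± 0.23 (SE), and Tgfb1, the profibrotic growth factor, at -0.18 ± 0.05 (SE). The list's median was -0.06, against -0.01 over all, and 6 of the 22 were above 0. Leaving out tTA + Doxy 7485, tTA + Doxy 7488, FVBN + Doxy 8340 or FVBN + Doxy 8341 left 0 called lower, and leaving out tTA + Doxy 7399, tTA + Doxy 7486, FVBN + Doxy 8337 or FVBN + Doxy 8338 left 1. Il6 and Myc lay at the floor on every array. No gene of the list was called higher under any of the 31 alternative settings in either genotype comparison. The list was chosen with earlier results known and held neither Clu nor Acta1. Clu was picked for its likeness to Lgals1. Its probe sets were higher in tTA by 1.15 and 0.99 without Doxy and by 1.08 and 0.89 with it. Acta1, read below with skeletal muscle markers, was higher by 1.68 ± 0.26 (SE) without Doxy and 0.80 ± 0.22 (SE) with it. The counts of calls therefore hold only for the genes listed.

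Genes that annexins and galectins work with came next. Of 20 ligands and receptors, 18 were on the array, 12 passed the filter and 1 was called, Nrp1, a neuropilin that binds galectin-1 as well as semaphorins and VEGF. It was lower by limma in tTA against FVBN control, at -0.37 ± 0.08 (SE, adjusted p = 0.0094), and stood at -0.41 ± 0.07 (SE) in tTA + Doxy against FVBN + Doxy. Over all tested probe sets, 1.82% were called lower without Doxy and 1.6% with it. An unadjusted p below 0.05 held for 1 of the 12 in each genotype comparison. Over all tested probe sets it held for 16.7% without Doxy and 21.1% with it. The list's medians were -0.04 without Doxy and -0.07 with it. The call without Doxy was lost without FVBN control 8177 or 8182, at -0.39 and -0.36. It was also lost when the fit was adjusted for the beta-actin ratio, at -0.29 ± 0.10 (SE, limma adjusted p = 0.284).

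Of 19 membrane repair genes, 14 were on the array and 10 passed the filter, and Dmd lay at the floor. None was called by limma in tTA against FVBN control, and the median was 0.03. At an unadjusted p below 0.05 stood 2 of the 10, beside 16.7% of all tested probe sets. In tTA + Doxy against FVBN + Doxy, 4 of the 10 stood at an unadjusted p below 0.05, beside 21.1% of all tested probe sets. By limma 1 was called higher there, Cav3, the muscle caveolin, at 0.24 ± 0.06 (SE), beside 4.27% over all. The list's median was 0.06. The count called higher was 0 without tTA + Doxy 7399, tTA + Doxy 7485, tTA + Doxy 7486, FVBN + Doxy 8337 or FVBN + Doxy 8341, and 2 without tTA 7311, tTA + Doxy 7424 or FVBN + Doxy 8340.

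Of the 11 S100 genes, small calcium-binding partners of annexins, 10 were on the array and 6 passed the filter. None was called by limma without Doxy, and the median was 0.00. At an unadjusted p below 0.05 stood 1 of the 6, beside 16.7% of all tested probe sets. Under Doxy 2 of the 6 stood at an unadjusted p below 0.05, beside 21.1% over all. By limma 1 was called higher there, S100a13, at 0.17 ± 0.05 (SE), beside 4.27% over all, with a list median of 0.04. The call was lost when any of 17 of the 19 arrays was left out and stayed without tTA 7288 or tTA + Doxy 7424. Among other galectins and annexins, only Anxa7 and Lgals2 passed the filter. Neither was called by limma in either genotype comparison, and 0 had an unadjusted p below 0.05.

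**Figure D4:**
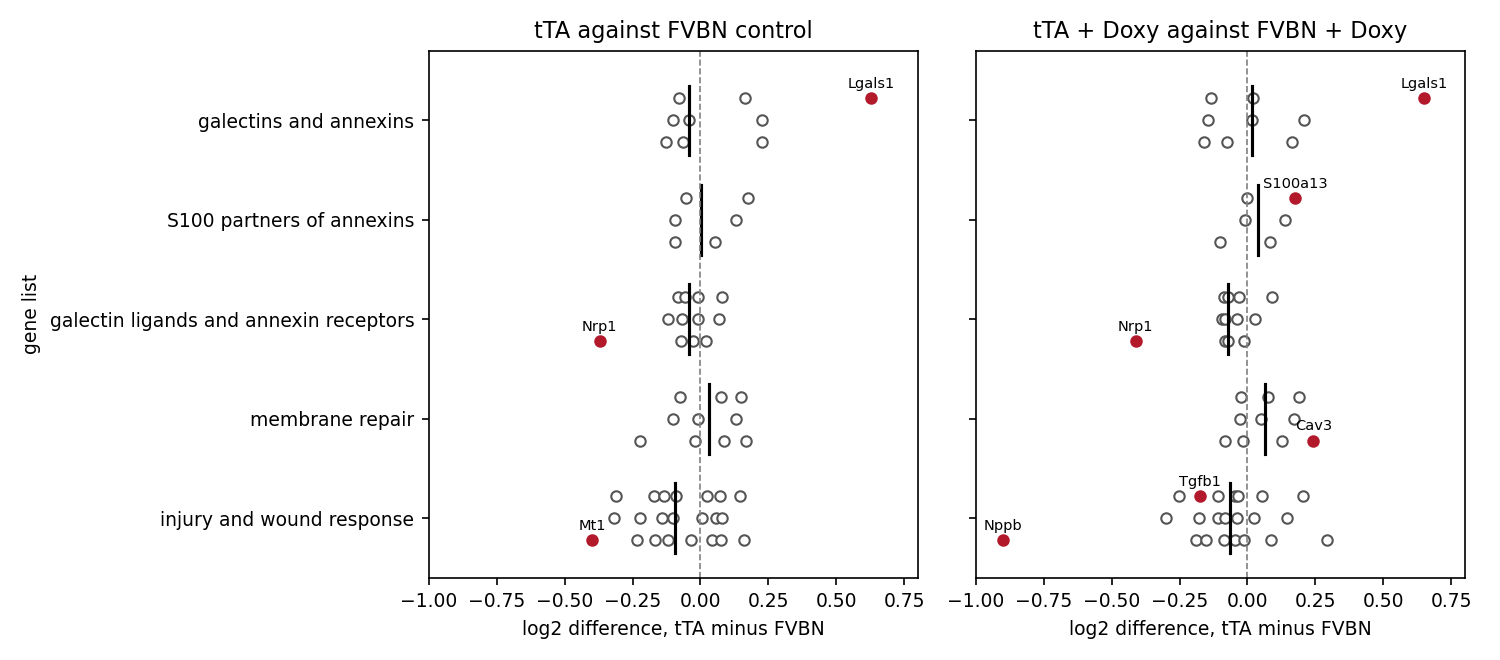
Log2 difference, tTA minus FVBN (x axis), of each tested gene in the gene lists (y axis), in 1 panel with Doxy and 1 without; filled points passed an adjusted p below 0.05 and the bar marks the list's median. Lgals1, which was chosen for its rise on these arrays, lies to the right of every gene of the injury list, so its place is only a description. Of the 22 genes of that list 0 were called higher, beside 0.966% of all tested probe sets without Doxy and 4.27% with it.

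Markers of other cell types were read beside Lgals1, and in bulk ventricle RNA fewer cells of a type and less RNA per cell cannot be told apart. Of all tested probe sets, 16.7% without Doxy and 21.1% with it stood at an unadjusted p below 0.05 between the genotypes. Of 18 macrophage and monocyte markers, 12 passed the filter and 0 were called higher in either comparison by limma, with 3 at that threshold in each. Their summed intensity ran over 1689 to 2043 in tTA + Doxy and 1589 to 1886 in tTA, against 1927 to 2101 in FVBN + Doxy and 1774 to 1898 in FVBN control, and none lay at the floor on all arrays. Cd14 was called lower under Doxy. Of 12 fibroblast markers, all passed the filter, 0 were called without Doxy and 1 was called lower with it, Fbln1. Their sums ran over 5212 to 5511 in tTA + Doxy and 4888 to 6529 in tTA, against 5465 to 5871 in FVBN + Doxy and 5673 to 5788 in FVBN control.

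Of 8 smooth muscle markers, 7 passed the filter. Acta2 was called lower in both genotype comparisons and Myl9 higher under Doxy, and the list's sums ran over 798.7 to 968.5 in tTA + Doxy and 704.7 to 864.2 in tTA, against 864.1 to 1029 in FVBN + Doxy and 978 to 1004 in FVBN control. Among 10 endothelial markers, all past the filter, Emcn alone was called, lower without Doxy. Their sums ran over 2182 to 2367 in tTA + Doxy and 2277 to 2441 in tTA, against 2224 to 2578 in FVBN + Doxy and 2565 to 2583 in FVBN control. The 3 red blood cell markers on the array had 0 calls by limma. Of them 1 stood at an unadjusted p below 0.05 in each genotype comparison, beside 16.7% without Doxy and 21.1% with it over all. It was not the same gene in both, and it was higher in tTA without Doxy and lower with it. The sums of the 3 markers ran over 2501 to 5422 in tTA + Doxy and 2597 to 4680 in tTA, against 5166 to 5671 in FVBN + Doxy and 4662 to 5173 in FVBN control. Of 8 skeletal muscle markers, 4 passed the filter, Myh1 lay at the floor and 1 was called higher in both comparisons, Acta1, the skeletal alpha actin that cardiomyocytes also make. That list's sums ran over 2182 to 3459 in tTA + Doxy and 2114 to 3966 in tTA, against 1736 to 2105 in FVBN + Doxy and 1373 to 1409 in FVBN control. The part of these cell types in the Lgals1 difference was not tested.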

How the data were processed

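Total RNA of mouse cardiac ventricle was measured on Affymetrix arrays, 20 in the deposited table, of which 1 has no group in the labels. The deposited values are intensity on a linear scale, and how the authors summarised, background-corrected and scaled them is not given in the sources used here. All 249760 values end in 3 at their 7th decimal, as an added constant of unknown size would leave; such a constant shrinks folds, most for dim probe sets. The number of arrays limits the precision.

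From these deposited intensities, log2 levels were computed. The 66 control probe sets were dropped, leaving 12422, of which a platform table linked 10833 to 1 gene, 396 to several and 1193 to none. Values were quantile normalized, floored at 14.37, their 10th percentile, and log2 transformed. The brightest 60% by mean over 19 arrays were tested, 7453 probe sets for 5658 genes, with a 4-group fit in limma 3.58.1 (R 4.3.3), trend and robust variance moderation and Benjamini-Hochberg adjustment in each comparison. Calls were made at an adjusted p below 0.05, and folds are powers of the log2 difference. The steps were tested on simulated data. No level of a probe set was set against that of another.

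The members and lists were chosen with earlier results of these data known. The rule named all probe sets of the 10 genes, the 5 probe sets most like Lgals1 by Pearson's r, and list genes only where called, at most 5 a list and comparison. Each list or marker gene was read by its brightest probe set by mean level alone. Alternatives were other scalings, floors, filters and variance models, array weights, the beta-actin ratio as a covariate, sets of arrays, each array left out in turn and, added after the data were seen, subtraction of the lowest deposited value and the list counts under each setting. Figures were made in Python 3.11.15 (matplotlib 3.10.9).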

Additional observations from a re-analysis of the deposited data

Results flagged for a closer look

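Among 33 groups of arrays examined for a single array far from the others, 3 had one, and chance flags about 1 in 20 groups. The Lgals9 probe set 103335_at read 6.87 on tTA + Doxy array 7488, below the 7.04 to 7.08 of the other arrays of its group. The other Lgals9 probe set, 161301_f_at, read 6.63 on tTA array 7308, below the 6.84 to 6.96 of the other tTA arrays. The pair correlated at r = 0.428 over the 19 arrays. Anxa3 read 5.83 on FVBN + Doxy array 8337, above the 5.53 to 5.57 of the other arrays of its group.

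The array that the labels put in no group was above both FVBN control arrays for 4 of the 11 tested member probe sets, in deposited intensity. The share over all tested probe sets was not counted, so nothing is read from this number. Lgals4 read 153.7, against 108.4 to 133 in FVBN control, and also lay above all 19 arrays. Lgals9 (103335_at) read 143.8, against 141.3 to 142.8. Anxa4 read 64.45, against 53.47 to 56.56, and Anxa5 read 395.8, against 373.3 to 387.7. Only values above both controls were flagged, and other members lay below both. Lgals1 read 734, against 741 to 836.5. Anxa2 read 469.3, against 509.9 to 608.8, and Anxa3 read 41, against 44.04 to 48.41. No group can be read from these values.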

How the results depend on the processing

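No paired analysis was possible because the groups share no replicate numbers. No called difference of a member changed sign. In tTA against FVBN control, the 1 called member became 0 with adjustment for the beta-actin ratio and 2 with tTA arrays 9310 and 9322 set aside, and 0 to 1 with each array left out in turn. The cause was not tested, beyond the fewer arrays of the last settings. In tTA + Doxy against FVBN + Doxy, the 1 called member became 3 with median scaling and 3 with the values as deposited (Anxa5 and Anxa6 were added). It became 2 with the brightest 40%, where fewer probe sets were tested, 2 without trend and robust option, 2 with array weights and 2 with adjustment for the beta-actin ratio (Anxa6 was added). With each array left out in turn it ran from 1 to 3. The cause was not tested. In the 2 Doxy comparisons and the interaction, 0 members were called in limma under all alternatives run, 31 for each Doxy comparison and 30 for the interaction. The Lgals1 difference ran from 0.51 to 0.69 without Doxy and from 0.59 to 0.72 with it. Its Doxy differences, which were not called, took both signs: from -0.04 to 0.09 in tTA + Doxy against tTA, from -0.10 to 0.06 in FVBN + Doxy against FVBN control, and from -0.04 to 0.16 for the interaction. Subtracting the lowest value of the table, an alternative chosen after the data were seen, gave 0.63 without Doxy. Of the calls over all probe sets in tTA against FVBN control, 34.6% were in the higher direction with quantile normalization, 17.2% with median scaling and 25% as deposited. In tTA + Doxy against FVBN + Doxy these shares were 72.8%, 81.5% and 79.1%. Calls over all probe sets in tTA + Doxy against FVBN + Doxy numbered 437, against 282 with all probe sets, 703 with array weights, 271 without FVBN + Doxy 8337, 241 without FVBN + Doxy 8341, 271 without tTA + Doxy 7485 and 267 without tTA + Doxy 7488. List counts moved too: under Doxy the count of membrane repair genes called higher ran from 0 to 4 and that of injury genes called lower from 0 to 4. Lgals1 has 1 probe set, so no other could be tried. The 2 FVBN control arrays limit the comparisons that use them, and the floor hides Lgals3.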

Other observations

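The array that has no group is titled Cardiac tTA expression, which mentions tTA but gives no array number and no treatment. Whether it is a tTA array cannot be told from that title. On this array, Lgals1 had a deposited intensity of 734. It lay below all tTA + Doxy arrays (1012 to 1322), all tTA arrays (948.3 to 1276) and both FVBN control arrays (741 to 836.5), and within FVBN + Doxy (654.9 to 814.5). Its Lgals3 value was 13.14, above the 12.73 to 12.81 of FVBN control and within the 12.15 to 13.74 of the 19 arrays, where this probe set lies at the floor, and its Anxa6 value was 451.9, within 388.3 to 518.1. No test was made, and no condition is read from these values.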
